A study of Homo sapiens with 40 samples.

Results

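The 10 genes described here, which act in arginine, methylarginine and polyamine metabolism, were followed through the response of lung cancer cells to an inhibitor of arginine methylation. They are ASS1, ASL and ARG2 (arginine synthesis and breakdown), DDAH1 and DDAH2 (methylarginine breakdown), and ODC1, AMD1, SRM, SMS and SAT1 (polyamine synthesis and breakdown). The 10 genes were chosen by symbol from the 58336 genes of the authors' deposited table. All 10 had values in every line, as did 9339 of the 19280 genes with a value in at least 1 line. GSK3368712, an inhibitor of the type I protein arginine methyltransferases, was compared with its vehicle dimethyl sulfoxide (DMSO) in 10 cultured lines of human non-small cell lung cancer. Each line had 2 RNA sequencing libraries with GSK3368712 and 2 with DMSO, 40 in all. The row labels assign NCIH1563, NCIH1975, NCIH522 and PC9 to lung adenocarcinoma (LUAD) and EBC1, LK2, NCIH226, NCIH520, SKMES1 and SW900 to lung squamous carcinoma (LUSC). The labels name no genotype and no further agent, each line is a single cultured line, and the time and dose terms in the sample and row names are not spelled out.

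Arginine is made from citrulline in a pair of steps, by argininosuccinate synthase (ASS1) and argininosuccinate lyase (ASL), and arginases such as the mitochondrial ARG2 split it into ornithine and urea. When proteins with methylated arginines are broken down, free asymmetric dimethylarginine is released, which inhibits nitric oxide synthases. It is hydrolysed to citrulline by dimethylarginine dimethylaminohydrolase, the activity for which DDAH1 and DDAH2 are named. Whether both carry this activity was not tested here. Ornithine feeds the polyamines: ODC1 makes putrescine, AMD1 supplies the aminopropyl donor, SRM and SMS build spermidine and spermine, and SAT1 acetylates both for breakdown or export.

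The table gives, for each gene and line, the authors' DESeq2 log2 fold change of GSK3368712 over DMSO with its standard error, an adjusted p, and a mean normalized count. A gene is called in a line where the authors' adjusted p is at most 0.05. The direction follows the order in which the row labels name both arms. No label tells whether an arm's libraries were grown apart, so within a line these p-values measure only the spread between libraries, which may be technical. The median standard error over the 9339 shared genes was 0.201 to 0.316 in the 4 LUAD lines and 0.092 to 0.115 in the 6 LUSC lines. Of 4 epithelial markers, the keratins KRT8 and KRT18 were listed in all 10 lines, EPCAM in 8 and CDH1 in 7. Of 8 immune, endothelial and fibroblast markers, PTPRC, CD3E and VWF were listed in no line. The other 5 were COL1A1 in 10 lines, CD68 in 8, PDGFRB in 4, COL3A1 in 3 and PECAM1 in NCIH1563 alone. The log2 fold change of COL1A1 was 0.54 ± 0.91 (n = 10; limma adjusted p = 0.125), and that of CD68 0.58 ± 0.82 (n = 8; limma adjusted p = 0.125 among genes listed in at least 6 lines). In NCIH1563 the authors' deposited table gives 2.51 for CD68, −0.945 for COL3A1, −1.18 for PDGFRB and −1.53 for PECAM1. The part of these markers in the results was not tested. The subtype markers, 5 squamous and 5 adenocarcinoma, mostly did not follow the labels. The squamous regulator SOX2 was listed in 4 of 6 LUSC lines (EBC1, LK2, NCIH520 and SW900) and in 1 of 4 LUAD lines, NCIH522. The squamous keratin KRT5 was listed in the LUAD line PC9 and in LK2 and NCIH226, and the squamous transcription factor TP63 in NCIH1975, PC9, SKMES1 and SW900. Of the other squamous markers, KRT6A was listed in LK2 and PC9 and DSG3 in no line. The adenocarcinoma regulator NKX2-1 was listed in NCIH1975 and in the 3 LUSC lines LK2, NCIH520 and SW900. Of the other adenocarcinoma markers, NAPSA was listed in NCIH1975, EBC1 and SW900, and SFTPB in the LUSC line SW900 alone. KRT7 was listed in all 10 lines and SFTPC in no line.

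Across the 10 lines, ASS1, SAT1 and DDAH2 rose, and the other 7 genes did not pass the test. The log2 fold change of ASS1 averaged 0.97 ± 0.86 (SD, n = 10 lines; limma adjusted p = 0.0088), that of SAT1 0.70 ± 0.43 (n = 10; limma adjusted p = 0.00155) and that of DDAH2 0.41 ± 0.33 (n = 10; limma adjusted p = 0.00972). On a linear scale these means are 1.96-fold, 1.63-fold and 1.33-fold. In each branch 1 gene was thus higher: the citrulline-consuming ligase, the polyamine acetyltransferase and 1 of the 2 genes named as methylarginine hydrolases. Of the 10 genes, 3 passed in the higher and 0 in the lower direction by limma, where 9.5% of the 9339 genes passed higher and 12.1% lower (21.6% in either direction). At an unadjusted limma p under 0.05 the counts were also 3 higher and 0 lower (16.3% and 18.3% of all genes). At an unadjusted p under 0.05 in an exact two-sided sign-flip test the counts were again 3 higher and 0 lower. By that test 18.1% of all genes were lower, and the share of all genes that were higher was not worked out. Restricted to the 6 LUSC lines, or to 7 lines without NCIH1975, NCIH522 and PC9, which have the widest standard errors, the count was again 3 of 10 (26.8% and 16.7% of all genes passed these fits). In bulk RNA, a change in RNA per cell and a change in the share of cells that hold it cannot be told apart.

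**Figure D1:**
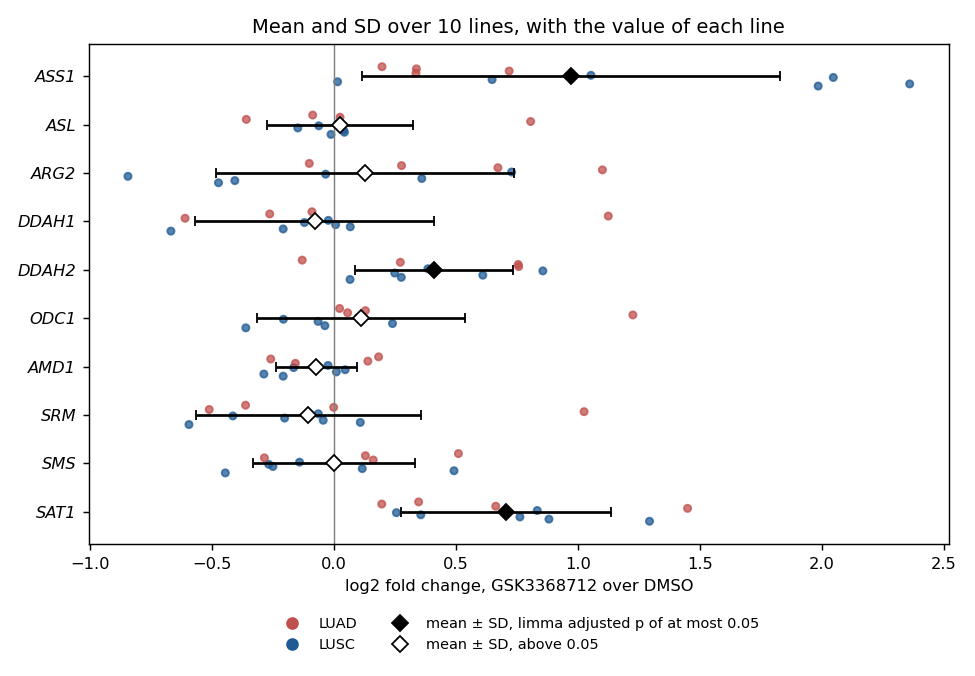
Log2 fold change of GSK3368712 over DMSO for each of the 10 genes (rows) in each of the 10 lines (points, coloured by subtype), with the mean and SD over lines as a diamond and bar. The filled diamonds mark ASS1 at 0.97, DDAH2 at 0.41 and SAT1 at 0.70, and the points of ASS1 spread from 0.02 to 2.36.

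The stretch upstream of the gene is shown for ASS1 and SAT1, the pair that rose most, to let their promoters be compared. ASS1 (ENSG00000130707) lies on the plus strand at chr9:130444929-130501274 and SAT1 (ENSG00000130066) on the plus strand at chrX:23783173-23786226, by GENCODE 29 on GRCh38. The sequences are from RefSeq's GRCh38.p14 promoter table, 5′ to 3′ on the gene's strand, and end at the last base before the GENCODE gene, at chr9:130444711-130444928 for ASS1 and chrX:23782923-23783172 for SAT1. Capitals mark matches to the motifs searched.
ASS1: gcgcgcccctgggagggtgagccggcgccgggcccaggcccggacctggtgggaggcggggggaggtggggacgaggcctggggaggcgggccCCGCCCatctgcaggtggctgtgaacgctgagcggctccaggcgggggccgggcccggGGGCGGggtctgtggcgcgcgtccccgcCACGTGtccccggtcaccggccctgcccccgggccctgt
SAT1: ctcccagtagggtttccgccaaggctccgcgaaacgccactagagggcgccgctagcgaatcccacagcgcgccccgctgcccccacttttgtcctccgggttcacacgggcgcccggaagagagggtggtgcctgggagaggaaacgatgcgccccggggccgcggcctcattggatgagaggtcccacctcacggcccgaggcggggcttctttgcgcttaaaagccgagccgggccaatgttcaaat
Searched on both strands were the E-box CACGTG, the AP-1 element TGANTCA, the GC box GGGCGG, the C/EBP-ATF response element TGATGNAA and the TATA box TATAAA. The ASS1 stretch holds 1 E-box, which begins 71 bases before the RefSeq start, and 2 GC boxes, none of which overlap. The SAT1 stretch holds 0 matches to these 5 motifs. Among 35116 RefSeq windows of the 250 bases before a start, 6.34% hold an E-box, 6.57% an AP-1 element, 42.6% a GC box, 3.14% a C/EBP-ATF element and 10.7% a TATA box on either strand. Of the 10 genes, only ASS1 and SRM have an E-box in the window searched. RefSeq gives 2 windows for ASS1 and ODC1, 3 for DDAH1, DDAH2 and AMD1, and 1 for each other gene. Matches are given for 1 window per gene, so other starts of these genes are not covered. The window of DDAH2 lies wholly inside its GENCODE gene and is not shown.

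ASS1 was the gene with the largest mean and the widest spread of fold changes. Among the LUAD lines of the authors' deposited table its log2 fold change was 0.72 for NCIH1975, 0.34 for NCIH522 and NCIH1563, and 0.20 for PC9. Among the LUSC lines of the authors' deposited table it was 2.36 in LK2, 2.05 in SKMES1, 1.99 in EBC1, 1.05 in SW900, 0.65 in NCIH520 and 0.02 in NCIH226. All 10 values lay above 0, as was the case for 4.39% of the 9339 genes, and 3 LUSC lines stood 3.96-fold to 5.13-fold above DMSO while NCIH226 had nearly the same level in both arms. By the authors' deposited adjusted p, ASS1 was higher in 0 of 4 LUAD lines and in 5 of 6 LUSC lines. The authors' adjusted p of these calls lay between 1.97e-179 in LK2 and 3.66e-06 in NCIH520. Of all listed genes, 23.3% were called higher in NCIH1563, 0.912% to 4.33% in the other LUAD lines and 11.4% to 23.0% in the LUSC lines. NCIH1975 had the largest LUAD value but a standard error of 0.328 in the authors' deposited table, against 0.082 in LK2. GENCODE 29 names 11 pseudogenes after ASS1. None of them had values in the table, and how reads shared with them were assigned is not stated.

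The level of ASS1 differed far more between lines than between arms. Levels were worked out from the authors' deposited mean normalized count and fold change, in CPM, normalized counts scaled to a sum of 1000000 per line, and since each line was normalized separately, levels set across lines are approximate. In LK2 the level was 140.2 CPM with GSK3368712 and 27.3 with DMSO, in EBC1 40.3 and 10.2, and in SKMES1 11.01 and 2.66. In NCIH226 it was 207 with GSK3368712 and 205 with DMSO, in NCIH1975 593 and 360.5, and in PC9 383 and 334. The DMSO levels spanned 135-fold, from SKMES1 as the lowest to NCIH1975 as the highest, so the raised level in SKMES1 or EBC1 remained below the vehicle level of NCIH226. Across the 10 lines the log2 DMSO level and the log2 fold change had a Pearson r of −0.63 and a Spearman rho of −0.58. The 6 LUSC lines alone gave r = −0.60 and a weaker rho of −0.37 (n = 6). Both measures use the same DMSO libraries, and the median r of all 9339 genes was −0.29, so an r below 0 is the common case.

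**Figure D2:**
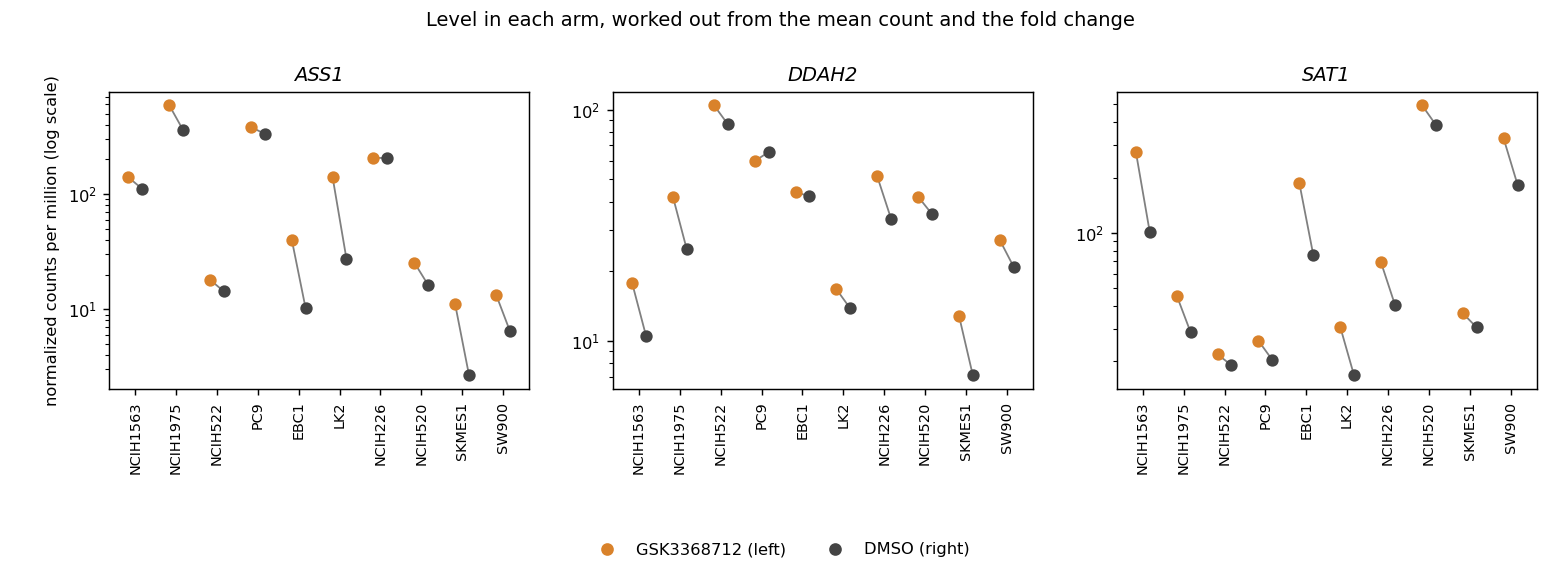
Level of ASS1, DDAH2 and SAT1 in each line, in normalized CPM on a log scale, with GSK3368712 (orange, left) joined to DMSO (grey, right). ASS1 spans 2.66 to 360.5 CPM over the DMSO arms, and its longest joins are those of LK2, SKMES1 and EBC1.

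ASL, which completes arginine synthesis, did not pass the test across lines. Its mean log2 fold change was 0.03 ± 0.30 (n = 10; limma adjusted p = 0.872), with 5 lines above and 5 below 0. The authors' deposited table puts the LUAD lines at 0.81 (NCIH1563), 0.03 (NCIH522), −0.09 (PC9) and −0.36 (NCIH1975), and the 6 LUSC lines between −0.15 (NCIH520) and 0.04 (LK2). NCIH1563 was the single line with a call (authors' adjusted p = 0.000255 in the authors' deposited table), and the LUSC lines lay close together. In LK2, where ASS1 changed most, ASL stood at 21.4 CPM with GSK3368712 and 20.8 with DMSO.

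ARG2, the mitochondrial arginase, was higher in some lines and lower in others. The authors' deposited table gives 1.10 for NCIH1563, 0.67 for NCIH1975, 0.28 for NCIH522 and −0.10 for PC9. Among the LUSC lines of the authors' deposited table it gives 0.73 in SW900, 0.36 in NCIH226, −0.03 in SKMES1, −0.41 in LK2, −0.47 in EBC1 and −0.84 in NCIH520. The authors called it higher in NCIH1563 and SW900, which have some of its lowest levels, and lower in EBC1, LK2 and NCIH520. Its mean was 0.13 ± 0.61 (n = 10; limma adjusted p = 0.63), and it was 0.021 without NCIH1563 and 0.24 without NCIH520. The DMSO level was 1.23 CPM in NCIH1563 and 2.90 in SW900, against 48.5 in NCIH520. Over 10 lines the log2 DMSO level and the fold change of ARG2 had r = −0.85 and rho = −0.81, with the same shared libraries as above. ARG2 overlaps VTI1B on the opposite strand, and the strand used in quantification is not stated.

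Of the 2 genes named as methylarginine hydrolases, DDAH2 passed the test across lines and DDAH1 did not. DDAH2 had values above 0 in 9 of 10 lines, which 11.8% of the 9339 genes reached or passed. For the LUAD lines the authors' deposited table gives a log2 fold change of 0.76 in NCIH1563, 0.76 in NCIH1975, 0.27 in NCIH522 and −0.13 in PC9. In the LUSC lines the values of the authors' deposited table were 0.86 in SKMES1, 0.61 in NCIH226, 0.39 in SW900, 0.28 in LK2, 0.25 in NCIH520 and 0.07 in EBC1. The authors called DDAH2 higher in NCIH1563, SKMES1, NCIH226, SW900 and LK2 and lower in no line. NCIH1975 had as large a fold change as NCIH1563 but an authors' adjusted p of 0.0515 in the authors' deposited table. SKMES1 and NCIH1563, with the lowest levels, had the largest values: 12.8 CPM with GSK3368712 and 7.09 with DMSO in SKMES1, and 17.8 and 10.5 in NCIH1563. NCIH1975, with about the same fold change as NCIH1563, had a DMSO level of 24.8 CPM. NCIH522, with the highest level, had 104.6 CPM with GSK3368712 and 86.6 with DMSO. Over 10 lines the log2 DMSO level and the fold change of DDAH2 had r = −0.71 and rho = −0.82. Both measures use the same DMSO libraries, and the median r of all 9339 genes was −0.29. DDAH2 (minus strand, chr6:31727038-31730617) overlaps CLIC1 on the same strand, which leaves the split of reads between these genes uncertain.

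DDAH1 averaged −0.08 ± 0.49 (n = 10; limma adjusted p = 0.738), a mean that was −0.21 without NCIH1975, −0.018 without NCIH1563 and −0.012 without EBC1. Its lowest log2 fold change in the authors' deposited table was −0.67 in EBC1, followed by −0.61 in NCIH1563, and its highest was 1.13 in NCIH1975. The median was −0.10, and the 5 LUSC lines other than EBC1 stayed between −0.21 and 0.07 in the authors' deposited table. It was called lower in EBC1 and NCIH1563 and higher in NCIH1975, where its level was its lowest, at 4.65 CPM with GSK3368712 and 2.13 with DMSO. DDAH2 lay above DDAH1 in 8 of 10 lines, by 0.49 ± 0.49 on the log2 scale, from 1.37 in NCIH1563 to −0.37 in NCIH1975. This difference was looked at after the values were seen and is given as a description.

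SAT1, which acetylates spermidine and spermine, was called in more lines than any other of the 10 genes. For the LUAD lines the authors' deposited table gives a log2 fold change of 1.45 in NCIH1563, 0.66 in NCIH1975, 0.35 in PC9 and 0.20 in NCIH522. Its LUSC values in the authors' deposited table were 1.29 in EBC1, 0.88 in LK2, 0.83 in SW900, 0.76 in NCIH226, 0.36 in NCIH520 and 0.26 in SKMES1. All 10 values lay above 0, and the authors called SAT1 higher in NCIH1563 and in all 6 LUSC lines. The level in NCIH1563 was 276 CPM with GSK3368712 and 101 with DMSO, and in EBC1 187 and 76.3. NCIH520, with the highest level, had 496 CPM with GSK3368712 and 388 with DMSO, and LK2, with the lowest, 30.9 and 16.8. For SAT1 the DMSO level and the fold change had r = 0.26 (rho = 0.35, n = 10 lines), with values below 0 for the other 9 genes. This contrast was not tested and did not hold in the 6 LUSC lines alone. There SAT1 had r = −0.15 (rho = −0.09), and ODC1, SMS and SRM had r of 0.17, 0.11 and 0.06.

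ODC1, the enzyme that commits ornithine to polyamines, averaged 0.11 ± 0.43 (n = 10; limma adjusted p = 0.558). In the authors' deposited table its log2 fold change was 1.23 in NCIH1563, and the other 9 lines lay between −0.36 in EBC1 and 0.24 in NCIH226. NCIH1563, NCIH226 (both higher) and EBC1 (lower) were the lines with a call. The level in NCIH1563 was 457 CPM with GSK3368712 and 195.5 with DMSO. SAT1 lay above ODC1 in 10 of 10 lines, by 0.59 ± 0.45, with the narrowest gap of 0.07 in NCIH522 and the widest of 1.65 in EBC1. That pair, too, is a description chosen after the values were seen. ODC1 hosts the small nucleolar RNA SNORA80B on its own strand.

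AMD1, which decarboxylates S-adenosylmethionine to supply aminopropyl groups, varied least, with a mean of −0.07 ± 0.17 (n = 10; limma adjusted p = 0.482). Its range in the authors' deposited table was from −0.29 in LK2 to 0.18 in PC9 with a median of −0.09, and it was called lower in LK2 and EBC1 and higher in no line. Its SD was the only one of the 10 below the all-gene median of 0.29. The median SD of the 10 genes was 0.43.

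SRM, spermidine synthase, averaged −0.10 ± 0.46 (n = 10; limma adjusted p = 0.614). In the authors' deposited table it stood at 1.03 in NCIH1563 and 0.11 in LK2, at 0.00 in NCIH522, and below 0 in the other 7 lines, down to −0.59 in EBC1. It was called lower in EBC1 and SKMES1 and higher in NCIH1563. Without NCIH1563 the mean of SRM was −0.23 and it passed the test (n = 9; limma adjusted p = 0.0483). NCIH1563 held the highest value, so leaving it out lowers the mean. SRM passed in no other fit that left out a single line (limma adjusted p from 0.578 to 0.844). The share of all genes passing without NCIH1563 was not worked out.

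SMS, spermine synthase, had a mean of 0.00 ± 0.33 (n = 10; limma adjusted p = 0.988) made of values on both sides of 0. The authors' deposited table gives 0.51 in PC9, 0.16 in NCIH1563, 0.13 in NCIH522 and −0.28 in NCIH1975. For the LUSC lines the authors' deposited table gives 0.49 in LK2, 0.12 in NCIH226, −0.14 in SW900, −0.25 in NCIH520, −0.27 in SKMES1 and −0.44 in EBC1. LK2 was called higher and EBC1, NCIH520 and SKMES1 lower. SMS was also the most abundant of the 10 in NCIH520, at 1661 CPM with GSK3368712 and 1974 with DMSO.

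**Figure D3:**
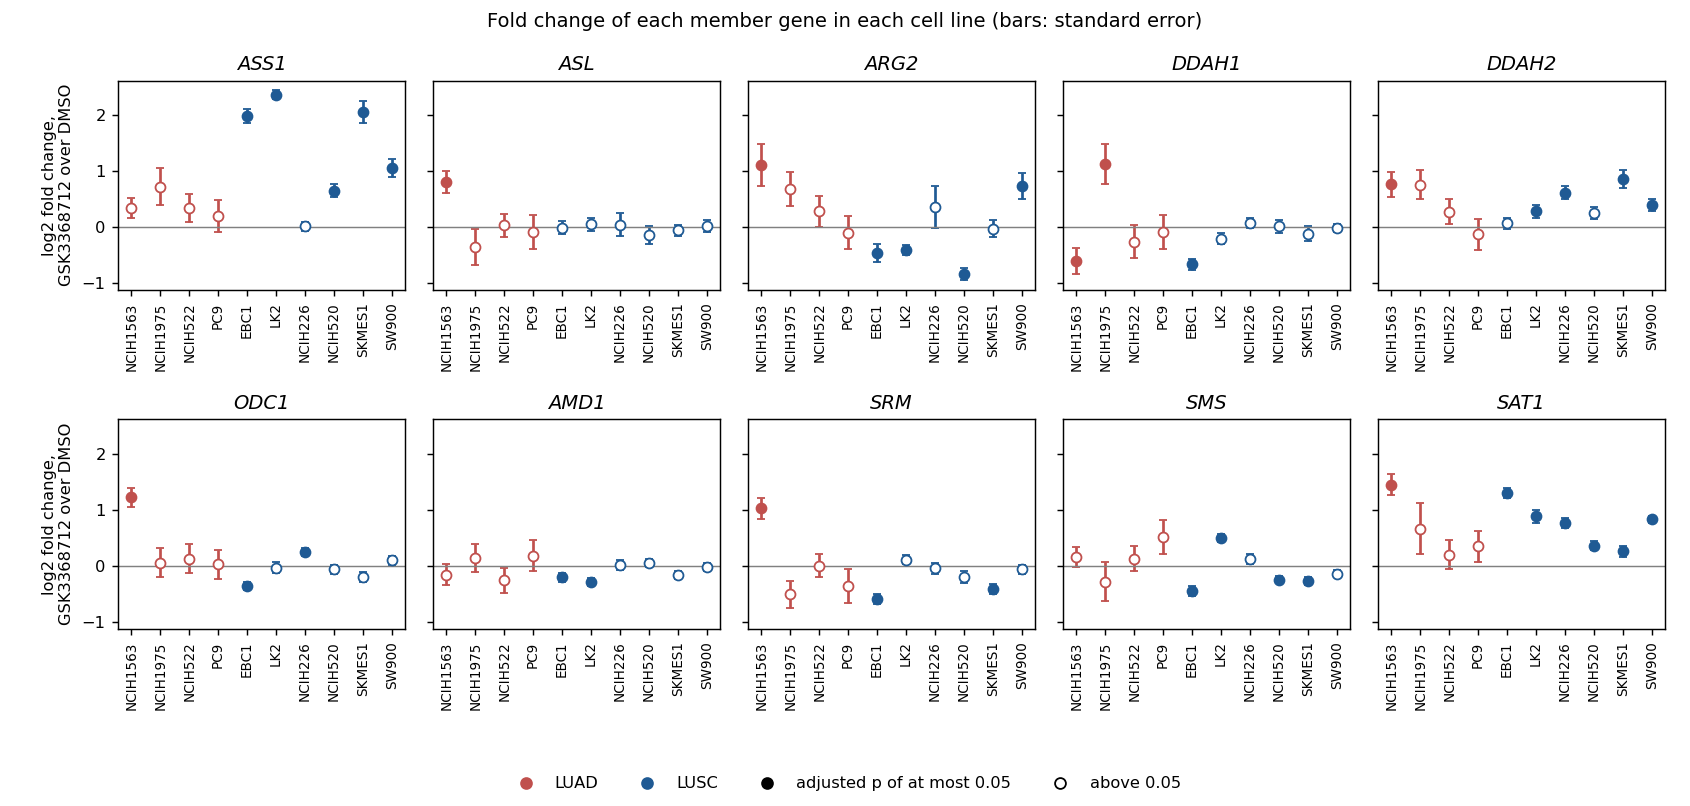
Log2 fold change of GSK3368712 over DMSO from the authors' deposited table for each gene (panels) and line (x axis, LUAD in red, LUSC in blue), with bars for the authors' standard error and filled points for an authors' adjusted p of at most 0.05. NCIH1563 stands apart in ASL, ODC1 and SRM at 0.81, 1.23 and 1.03, and ASS1 is filled in 5 of 6 LUSC lines.

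Counted over genes and lines, 25 of the 100 values were called higher and 13 lower (38.0%), where 26.4% of the values of all 9339 genes were called, 12.2% higher and 14.2% lower. A call with a log2 fold change of 1 or more in size was made for 10 of the 100 values and for 2.97% of those of all genes. Among the LUAD lines, NCIH1563 had 6 of 10 genes higher and 1 lower, where the authors called 23.3% of all listed genes higher and 24.8% lower (48.1% in all). NCIH1975 had 1 higher and 0 lower (4.33% and 3.58% of all genes, 7.91% in all). NCIH522 had 0 called (0.912% higher and 0.75% lower, 1.66% in all), and so had PC9 (2.56% and 1.92%, 4.48% in all). Among the LUSC lines, EBC1 had 2 higher and 6 lower (23.0% and 23.4% of all genes, 46.5% in all). LK2 had 4 higher and 2 lower (19.9% and 19.5%, 39.4% in all), and NCIH226 3 and 0 (15.5% and 15.8%, 31.3% in all). NCIH520 had 2 higher and 2 lower (11.4% and 12.3%, 23.8% in all), SKMES1 3 and 2 (15.8% and 15.6%, 31.4% in all), and SW900 4 and 0 (18.0% and 17.7%, 35.7% in all). The 0 counts of NCIH522 and PC9 stand beside the few calls these lines have over all genes. Of the 10 genes, ASS1, ASL, DDAH2 and SAT1 were called lower in no line, AMD1 was called only lower, and the other 5 were called in both directions.

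NCIH1563 and EBC1, the lines with the most calls, had 2 calls in the same direction and others in opposite directions. The authors called 48.1% of all listed genes in NCIH1563 and 46.5% in EBC1. The share of all genes called in both lines, in the same or in opposite directions, was not worked out. In NCIH1563 the authors called ASL, ARG2, DDAH2, ODC1, SRM and SAT1 higher and DDAH1 lower. In EBC1 they called ASS1 and SAT1 higher and ARG2, DDAH1, ODC1, AMD1, SRM and SMS lower. Called in the same direction in both lines were SAT1 as higher and DDAH1 as lower. ARG2, ODC1 and SRM were called in opposite directions: for ODC1 the authors' deposited table gives 1.23 in NCIH1563 and −0.36 in EBC1, and for SRM 1.03 and −0.59.

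Weighed by the authors' standard errors in Cochran's Q, the fold changes differed between lines for 10 of 10 genes, where 65.9% of the 9339 genes passed. Q sets the spread between lines against the standard error between libraries of a line, which may be technical, so that a gene passing it is the common case. Q was highest for ASS1 (545.6, adjusted p = 1.82e-108, chi-square over 10 lines) and lowest for ASL (18.8, adjusted p = 0.0416). Within the 6 LUSC lines 9 of 10 genes passed, where 53.0% of all genes did. ASL did not, with a Q of 1.31 and an adjusted p of 0.949. ASL also lost its call without NCIH1563 (Q = 2.51, adjusted p = 0.972), and AMD1 lost its own when standard errors were floored at each line's median (Q = 11.2, adjusted p = 0.329).

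Over the 10 lines, ODC1 and SRM had a Pearson r of 0.92 between their fold changes, ASL and SRM 0.91, and ASL and ODC1 0.85, the closest of 45 pairs. Without NCIH1563 the values of r were 0.63, 0.60 and 0.05 (n = 9 lines). The paired values come from the same libraries, and r is given as a description.

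Between the subtypes, 0 of 10 genes differed by limma's adjusted p, where 1 of 9339 genes (0.0107%) passed and 5.47% had an unadjusted p under 0.05. ASS1 had the largest difference. Its mean was 0.40 ± 0.22 in the LUAD lines (n = 4) and 1.35 ± 0.92 in the LUSC lines (n = 6), a difference of −0.95. Its limma unadjusted p was 0.0346 and its adjusted p 0.885, and an exact two-sided permutation of the subtypes over 210 assignments gave p = 0.0857. The groups overlapped, since NCIH226 at 0.02 lay below every LUAD line and NCIH520 at 0.65 below NCIH1975 at 0.72 in the authors' deposited table. ARG2 averaged 0.49 ± 0.52 in LUAD lines and −0.11 ± 0.58 in LUSC lines (limma adjusted p = 0.96). ODC1 averaged 0.36 ± 0.58 in LUAD lines and −0.05 ± 0.21 in LUSC lines (limma adjusted p = 0.965). That difference of 0.41 became 0.12 without NCIH1563 (limma adjusted p = 0.657). DDAH2 and SAT1 had means close to each other: 0.41 ± 0.43 in LUAD lines and 0.41 ± 0.28 in LUSC lines for DDAH2, and 0.66 ± 0.56 in LUAD lines and 0.73 ± 0.38 in LUSC lines for SAT1 (limma adjusted p = 0.9995 for each). The wider standard errors of the LUAD lines move with the subtype, and their part in these comparisons was not tested.

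Per length of transcript, ODC1 was the most abundant of the 10 genes in 4 lines, SAT1 in 3, ASS1 in 2 and SMS in 1, by the mean of both arms in CPM per kilobase. ARG2 was the least abundant in 6 lines, DDAH1 in 2, and ASS1 and ASL in 1 each. The median over lines of that length-scaled level was 129 for ODC1, 100.5 for SMS, 69.8 for SRM, 43.2 for SAT1, 29.7 for AMD1, 27.6 for ASS1, 21.3 for DDAH2, 13.3 for ASL, 6.51 for DDAH1 and 4.96 for ARG2. Neighbours in this order overlapped over lines: ODC1 ran from 68.0 to 533 and SMS from 42.8 to 989. Over the DMSO arms the level in CPM spanned 5.59-fold for AMD1 and 8.0-fold for ODC1, against 64.5-fold for DDAH1 and 135-fold for ASS1. The lowest DMSO level of a polyamine synthesis gene was 31.0 CPM, for SRM in NCIH1563. ARG2, DDAH1 and ASS1 went down to 1.23 CPM in NCIH1563, 2.13 CPM in NCIH1975 and 2.66 CPM in SKMES1.

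The surrounding pathway was followed in 64 further genes, of which 39 had values in all 10 lines. Of those, 0 rose and 4 fell by limma's adjusted p, where 9.5% of all 9339 genes rose and 12.1% fell. With genes listed in at least 6 lines included, 2 of 50 rose and 6 fell, where 9.52% of 12877 genes rose and 10.5% fell (20.0% in all). The median of the means of the 39 genes was −0.003, beside 0.004 for all 9339 genes. Of the 4 genes of hypusine formation, which uses spermidine to modify translation factor eIF5A, 2 fell, beside the 12.1% of all genes. DHPS, deoxyhypusine synthase, fell by 0.27 ± 0.18 with 10 of 10 lines below 0 (n = 10; limma adjusted p = 0.0141), where 5.43% of genes had all lines below 0. EIF5A2, an eIF5A paralog, fell by 0.32 ± 0.34 (n = 10; limma adjusted p = 0.0343), while EIF5A stood at −0.10 ± 0.28 and the hydroxylase DOHH at 0.06 ± 0.29.

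Of 7 transporter genes tested, SLC25A15, the mitochondrial ornithine carrier, fell by 0.27 ± 0.24 (n = 10; limma adjusted p = 0.0287). SLC25A29, a mitochondrial carrier of basic amino acids, stood at 0.25 ± 0.42 and did not pass. SLC3A2 and SLC7A6 stood at 0.12 ± 0.22 and 0.07 ± 0.22. Of 7 arginine methyltransferase genes tested, PRMT3 fell by 0.41 ± 0.25 (n = 10; limma adjusted p = 0.00365). PRMT9 stood at −0.35 ± 0.44, PRMT2 at 0.19 ± 0.20 and PRMT1, the main type I enzyme, at 0.10 ± 0.23.

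Of 9 antizyme and polyamine oxidation genes, 4 had values in all 10 lines, and 0 of these passed. Among genes listed in at least 6 lines, AZIN2 rose and PAOX fell (values under Other observations), while OAZ3 and SAT2 did not pass. SMOX, which oxidises spermine, stood at 0.41 ± 0.62 (n = 10; limma adjusted p = 0.0966) and the antizyme inhibitor AZIN1 at −0.18 ± 0.23. The antizymes OAZ1 and OAZ2, which target ODC1 for degradation, stood at −0.09 ± 0.24 and 0.11 ± 0.27. Of 7 methionine cycle and salvage genes 0 passed, with APIP at −0.18 ± 0.27, MRI1 at −0.17 ± 0.23, MAT2B at 0.17 ± 0.25 and ENOPH1 at −0.09 ± 0.22. Of 8 ornithine, proline and glutamate genes 0 passed, with glutamine synthetase GLUL at 0.30 ± 0.56, ALDH4A1 at −0.15 ± 0.27 and ALDH18A1 at 0.08 ± 0.25. Both tested genes of the urea cycle and creatine list, OAT at 0.06 ± 0.29 and GAMT at −0.05 ± 0.34, did not pass. At an unadjusted limma p under 0.05, 3 of the 39 genes were higher (SMOX, PRMT2 and SLC25A29) and 7 lower, where 16.3% of all 9339 genes were higher and 18.3% lower. The urea cycle enzymes ARG1 and OTC and the nitric oxide synthases NOS1 and NOS2 were listed in no line, and NOS3 in 3 lines. MTAP, which recycles the methylthioadenosine that SRM and SMS release, was listed in 8 lines, NCIH1563 and SW900 being the exceptions.

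**Figure D4:**
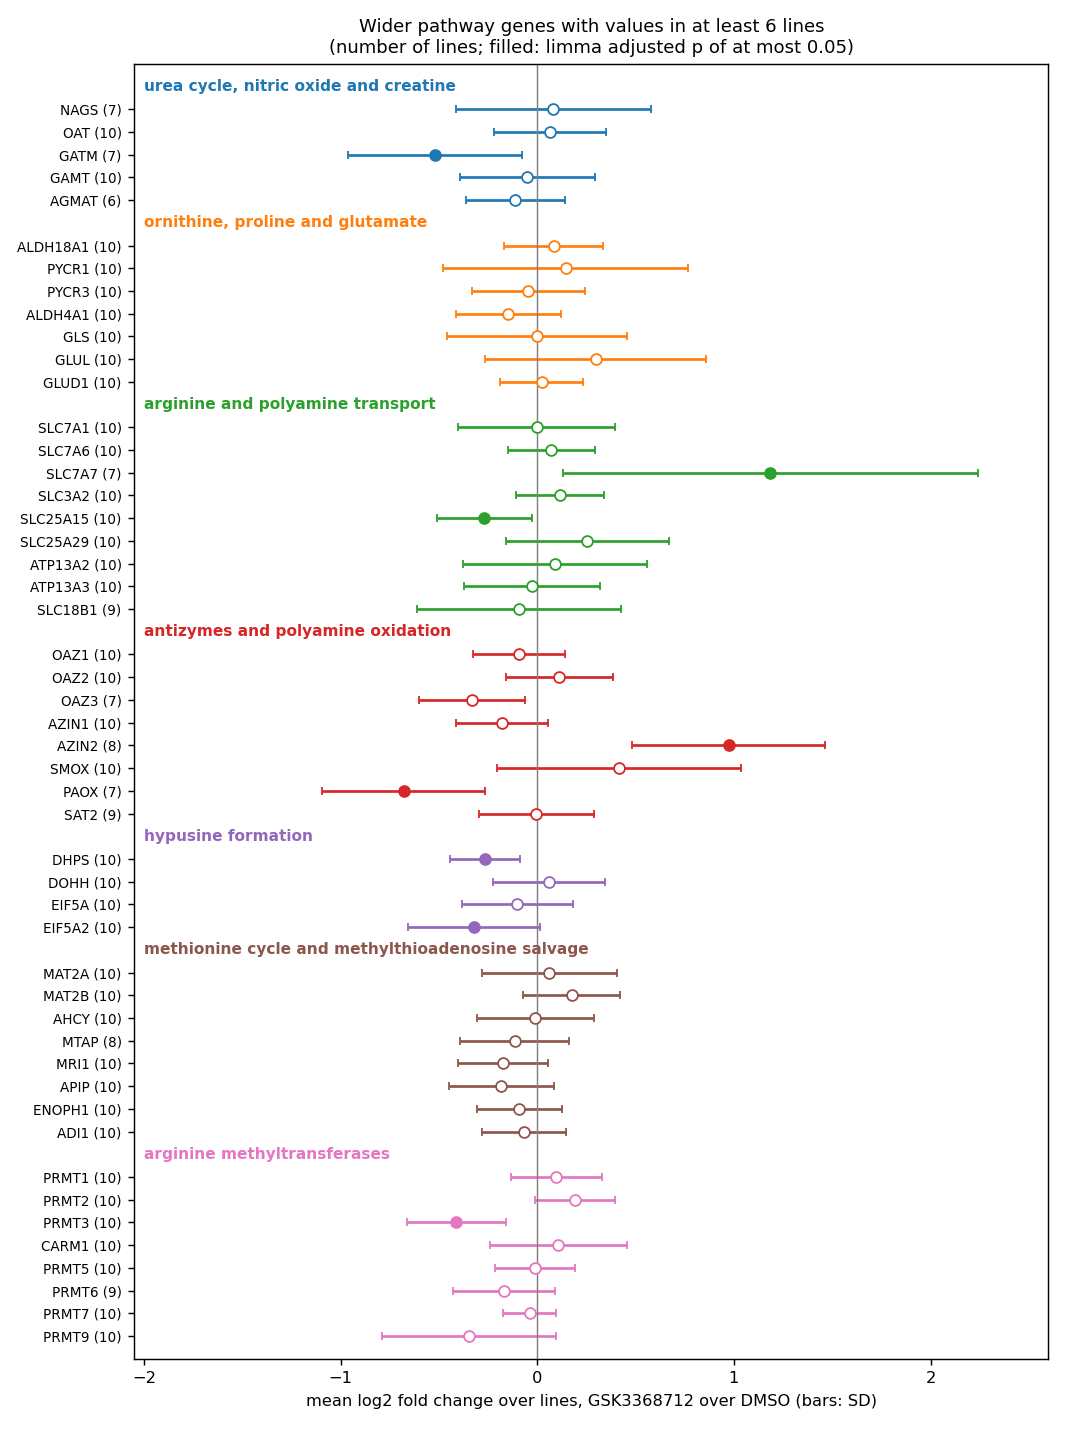
Mean log2 fold change of GSK3368712 over DMSO and its SD over lines for the pathway genes around the 10 described, grouped by function, for genes with values in at least 6 lines (number of lines in brackets, 1 gene not shown). Filled points pass limma's adjusted p of at most 0.05 in the fit on genes with values in at least 6 lines, among them DHPS at −0.27, EIF5A2 at −0.32, SLC25A15 at −0.27 and PRMT3 at −0.41.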

How the data were processed

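RNA was extracted with a miRNeasy kit and sequenced as TruSeq Stranded mRNA libraries, per the labels' protocols. Reads were handled with FastQC, Salmon 0.12.0 and DESeq2 (version not stated) on GRCh38, per the submitters' processing notes. The labels state that genes at an FPKM of 1 or less were filtered per comparison. The authors' deposited table holds, per gene and line, a log2 fold change with its standard error on the log2 scale, a test statistic (a score), an adjusted p-value, a mark (adjusted p at most 0.05 and a log2 fold change of 1 or more in size) and a mean normalized count, a signal the authors scaled within each line. It holds no value per library, so the depth per library is unknown and no counting interval is given.

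The level of an arm was worked out from the mean and the fold change, taking both arms as equal in size. It is given in CPM, scaled to 1000000 of the line's summed mean normalized counts, and per kilobase of the longest coding GENCODE 29 transcript. The sums ran from 57647556 to 108557964 per line. In R 4.3.3 with limma 3.58.1, a one-sample moderated test of the 10 fold changes per gene and a LUAD minus LUSC test were run on all 9339 genes with values in every line. Cochran's Q used the authors' standard errors. All were adjusted by Benjamini-Hochberg over all genes tested, at a threshold of 0.05. The scripts were tested on simulated data. Python 3.11.15 with numpy 2.4.6, scipy 1.17.1, pandas 2.3.3 and matplotlib 3.10.9 was used for the rest.

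The 10 genes, the pathway lists and the comparisons were chosen with earlier results of these data known. Named are all 10 genes, up to 4 genes per pathway list with the smallest limma p (all of a list with up to 6 measured), and the 3 genes closest to each of the 10 by correlation. The values of 1 gene that this rule takes are not reported here. Alternatives were centring or scaling per line, another expression filter, genes listed in at least 6 lines, other variance estimates and tests, a meta-analysis, and leaving out lines. All 10 genes were listed in every line, so a planned fit for genes listed in 6 to 9 lines did not apply. Symbols came from the deposited table, and 10 of 10 matched GENCODE 29 and the RefSeq promoter table.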

Additional observations from a re-analysis of the deposited data

Results flagged for a closer look

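Fold changes were examined in 30 groups, each of the 10 genes over all lines and within each subtype. In 6 groups a line stood apart from the rest by Dixon's 95% criterion. Chance passes it in about 1 in 20 groups where all values have equal spread. These lines do not, with median standard errors from 0.092 in LK2 to 0.316 in NCIH1975, so that rate is no fair comparison here. Over the 10 lines 4 of the 10 genes had such a line, where 19.3% of all genes did. For 7.85% of all genes it was NCIH1563 as the highest. The groups are nested, so that ODC1 in NCIH1563 counts more than once. The share of all genes within each subtype was not worked out. Each value is from the authors' deposited table, as a log2 fold change. ASL stood apart at 0.81 in NCIH1563 among the 10 lines. ODC1 stood apart at 1.23 in NCIH1563, both among the 10 lines and among the 4 LUAD lines, and SRM at 1.03 in the same line. DDAH1 stood apart at 1.13 in NCIH1975 among the 10 lines and at −0.67 in EBC1 among the 6 LUSC lines. In EBC1 it only just passed, with a gap of 0.626 of the range against a limit of 0.625. In NCIH1975 the standard error of DDAH1 was 0.364 in the authors' deposited table.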

How the results depend on the processing

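No paired analysis was possible because the table holds no value per library, so no fit with a replicate block could be made. ASS1, DDAH2 and SAT1 passed the test across lines under every alternative run, and the number of genes passing was 3 in each except without NCIH1563, where it was 4 with SRM. Leaving out each line in turn gave 3 to 4 genes, with means of 0.82 to 1.08 for ASS1 (limma adjusted p from 0.00687 to 0.0224), 0.36 to 0.47 for DDAH2 and 0.62 to 0.76 for SAT1. The number differing between lines was 9 to 10 on leaving out a line, and the number differing between subtypes stayed 0. By limma, 21.6% of all genes passed over 10 lines and 20.0% among genes listed in at least 6 lines. In the 6 LUSC lines 26.8% passed, and 16.7% without NCIH1975, NCIH522 and PC9. By Q, 65.9% differed over 10 lines and 53.0% within the LUSC lines. For the other alternatives these shares were not worked out, so their counts have no such comparison.

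Means near 0 changed sign without passing. Scaling by each line's SD gave −0.010 for ASL and −0.031 for SMS, and the random-effects meta-analysis −0.015 for SMS. In the LUSC lines alone, added after the data were seen, ASL stood at −0.020, ARG2 at −0.11, ODC1 at −0.054 and SMS at −0.0815. Without NCIH1975, NCIH522 and PC9, also added then, SMS stood at −0.047. Centring turned the LUAD minus LUSC difference of DDAH2 to −0.025. Leaving out each line gave −0.060 to 0.070 for ASL, −0.053 to 0.053 for SMS and −0.012 to 0.16 for ODC1. For the LUAD minus LUSC difference it gave −0.12 to 0.27 for ASL, −0.16 to 0.41 for DDAH1, −0.11 to 0.19 for DDAH2, −0.33 to 0.0895 for SAT1 and −0.090 to 0.42 for SRM. The cause was not tested.

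Of the 38 calls over the 10 lines, 10 also had a log2 fold change of 1 or more in size. Testing genes listed in at least 6 lines raised the calls among the surrounding pathway genes to 8 of 50, 2 higher and 6 lower, since 11 more genes were tested. Arm levels rest on equal arms.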

Other observations

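Pathway genes that the authors' expression filter left out of some lines were tested among the 12877 genes listed in at least 6 lines, of which 9.52% were higher and 10.5% lower by limma (20.0% in all). The 4 genes named here were chosen after their values were seen. AZIN2, an antizyme inhibitor, rose by 0.97 ± 0.49 (n = 8 lines, all above 0; limma adjusted p = 0.00237), from 0.36 in SW900 to 1.77 in SKMES1. SLC7A7, a light chain of a basic amino acid exchanger, rose by 1.18 ± 1.06 with 6 of 7 lines above 0 (n = 7; limma adjusted p = 0.0326). PAOX, which oxidises the acetylated polyamines that SAT1 makes, fell by 0.68 ± 0.41 with 7 of 7 lines below 0 (n = 7; limma adjusted p = 0.0108). GATM, which transfers the amidino group of arginine in creatine synthesis, fell by 0.52 ± 0.44 with 7 of 7 lines below 0 (n = 7; limma adjusted p = 0.0382).

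For each of the 10 genes, the closest fold change patterns over the 10 lines were sought among 4669 genes above the median expression, as a description. ASS1 came closest to NFIX (Pearson r = 0.88), ZMYM3 (0.87) and TEX264 (0.81), and ASL to TMEM54 (0.97), SNRNP25 (0.97) and POLR1D (0.95). ARG2 came closest to C14orf119 (0.95), LGMN (0.93) and FKBP1A (0.90), DDAH1 to ADAM9 (0.95), SOX4 (0.94) and SLC39A6 (0.93), and DDAH2 to C12orf57 (0.91), DLG1 (0.90) and PNRC2 (0.87). ODC1 came closest to PEA15, SAE1 and FRMD5 (0.97 each), AMD1 to MRPS35 (0.92), HDAC2 (0.86) and MRFAP1 (0.84), and SRM to DCTPP1, PYGB and DGKZ (0.98 each). SMS came closest to MAP2K1 (0.92), AVL9 (0.85) and AP2B1 (0.85), and SAT1 to GNL1 (0.93), COA3 (0.90) and CNN2 (0.89). All these values share the same libraries, and the highest of 4669 correlations is high by selection.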
